A study of Mus with 16 samples.

Results

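The transcripts of the 3 core pluripotency genes Pou5f1, Sox2 and Nanog were followed across bulk RNA-seq libraries of hybrid mouse epiblast stem cells. They were taken by Ensembl transcript ID, as ENSMUST00000025271 for Pou5f1, ENSMUST00000099151 for Sox2 and ENSMUST00000012540 for Nanog, and are 3 of the 116747 transcripts listed for each library. All 3 were listed in all 16 libraries and passed the filter on low counts. The gene names came with this choice of IDs and were not checked against an annotation. The libraries hold ribodepleted total RNA from F1 hybrid epiblast stem cells, in which the standard laboratory strain C57Bl/6J is 1 parent and a wild-derived inbred strain is the other. The wild-derived parent names each of the 4 groups (SpretB6, PwkB6, MolfB6, CastB6). Each group has 4 libraries, numbered 1, 3, 5 and 6 in the titles (1, 2, 3 and 6 in MolfB6). Every group carries a C57Bl/6J genome, and the deposited values are listed per transcript, with no separate value for either allele; how reads of the wild-derived allele were handled is unknown here. No added agent, age or sex is named. The labels do not state whether the libraries of a cross come from separate cell lines, cultures or embryos. P-values are thus measured against the spread from library to library, part or all of which may be technical.

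Pou5f1, also called Oct4, encodes a POU-homeodomain transcription factor without which the pluripotent lineage of the embryo is not kept. Sox2 encodes an HMG-box factor that binds DNA together with OCT4 at composite sites near many pluripotency genes, the 3 genes here among them. Nanog encodes a homeodomain factor that belongs to the same mutually activating circuit. Epiblast stem cells are in the primed state, which resembles the epiblast after implantation and depends on activin and FGF signals. Of the 3 genes, Sox2 is also kept on in neural progenitors, where Pou5f1 and Nanog are silenced.

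In the RefSeq gene table of the assembly GRCm38.p6, Pou5f1 lies on chromosome 17 from 35506032 to 35510777, Sox2 on chromosome 3 from 34649995 to 34652461 and Nanog on chromosome 6 from 122707489 to 122714633. All 3 are protein-coding genes. Each followed transcript is 1 product of its gene, as the table gives 2 curated transcripts for Pou5f1, 4 for Nanog and 1 for Sox2. The table also holds 5 pseudogenes named after Pou5f1, 2 named after Nanog and 0 named after Sox2. The Sox2 gene lies inside the long noncoding gene Sox2ot (34560381 to 34677993), so that reads of Sox2 and of Sox2ot may not be fully told apart. No strand setting of the counting is known.

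Salmon, the quantifier named in the submitters' processing notes, divides reads that match several transcripts, which leaves estimates that are not whole. The Sox2 estimate lay within 0.01 of a whole number in 15 of 16 libraries, and within 0.017 in the other, CastB6 6. For Pou5f1 and for Nanog it did so in 0 of 16 libraries. How much of the Pou5f1 and Nanog levels rests on divided reads was not measured. Total estimated reads ran from 42596559 to 72364991 per library, and 61229 to 67901 transcripts had reads. Since these are bulk samples, fewer cells of a type and less RNA per cell cannot be told apart.

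All 3 transcripts were present in every library, at levels that were far apart from each other. Levels are given in TPM, in which reads are divided by the effective length of the transcript, so that genes can be compared. Pou5f1 stood at 556 ± 75.6 TPM (SD, n = 16) and was the 199th to 303rd most abundant transcript of a library. Nanog stood at 102 ± 33.0 TPM (SD, n = 16), in place 681 to 2600. Sox2 stood at 32.0 ± 9.19 TPM (SD, n = 16), in place 2615 to 5280. The order Pou5f1, Nanog, Sox2 held in all 16 libraries. From the lowest to the highest library, Pou5f1 spanned 1.72-fold, Sox2 2.48-fold and Nanog 3.70-fold. Counting error was small beside this, since the library with the fewest reads of each had 25569 for Pou5f1, 3722 for Nanog and 1764 for Sox2, a Poisson error of 0.625%, 1.64% and 2.38%. The pluripotency factors of the label were thus detected in every library; markers of other cell types were not matched to transcript IDs here.

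**Figure D1:**
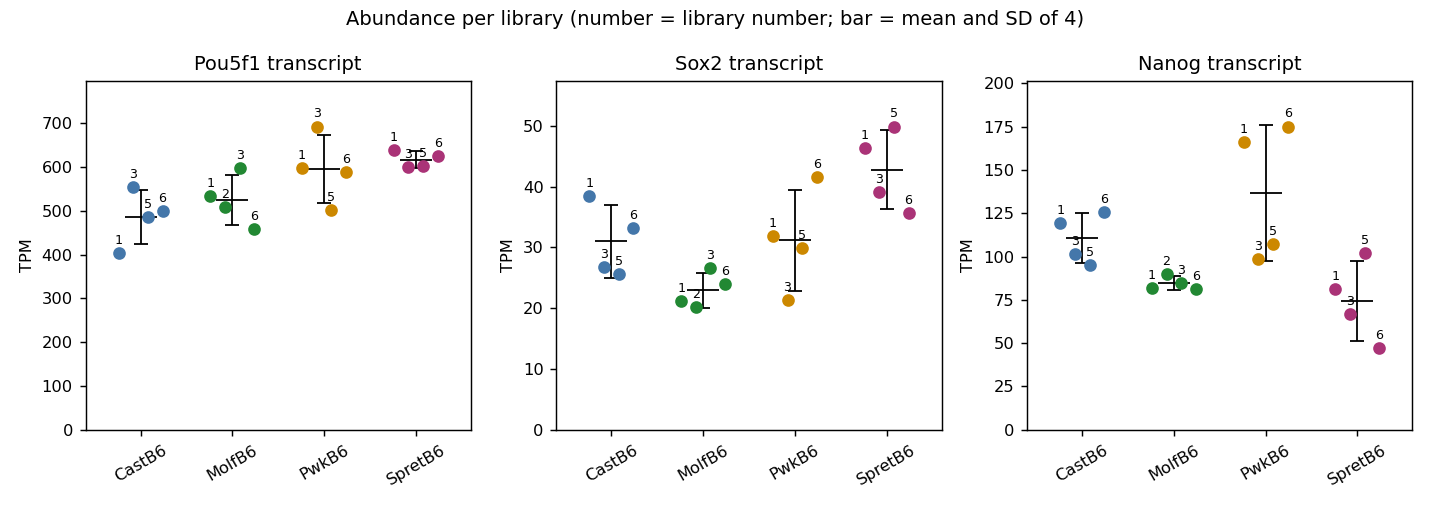
TPM of the Pou5f1, Sox2 and Nanog transcripts (vertical axes from 0) in each library of the 4 crosses; points carry the library number, and bars show the mean and SD of 4 libraries. All SpretB6 points for Sox2 (35.7 to 49.9 TPM) lie above all MolfB6 points (20.1 to 26.6 TPM), and the Nanog points of PwkB6 fall into a lower and a higher pair.

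Sox2 was highest in SpretB6 and lowest in MolfB6. The SpretB6 libraries 1, 3, 5 and 6 held 46.4, 39.2, 49.9 and 35.7 TPM (mean 42.8 ± 6.53; SD, n = 4, as for all cross means below). In MolfB6 the libraries 1, 2, 3 and 6 held 21.2, 20.1, 26.6 and 23.99 TPM (mean 23.0 ± 2.89), so that these crosses did not overlap. CastB6 and PwkB6 lay between them and overlapped with both. The CastB6 libraries 1, 3, 5 and 6 held 38.5, 26.8, 25.6 and 33.1 TPM (mean 31.0 ± 6.00). PwkB6 was the widest, with 31.9, 21.3, 29.9 and 41.6 TPM in libraries 1, 3, 5 and 6 (mean 31.2 ± 8.31).

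The question for each gene was whether its level differs between crosses, and it was asked with edgeR's quasi-likelihood test on the rounded estimated reads of all 56721 transcripts that passed the filter. Differences below are log2 fold changes after TMM scaling, and p-values are adjusted over all transcripts by the Benjamini-Hochberg method. In the joint test of the 4 crosses 9.73% of all transcripts passed the threshold of 0.05, and so did 2 of the 3 genes, Sox2 and Nanog. For Sox2 the adjusted p of the edgeR joint test was 0.00296. It remained below the threshold in all 24 other settings tried, at 2.34e-08 to 0.0294. Between crosses lay 78.9% of the variance of the Sox2 log2 level, against a median of 30.5% over all tested transcripts, and 95.5% of those had a lower share.

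Sox2 was higher in SpretB6 than in MolfB6 and PwkB6. Against MolfB6 the difference of MolfB6 minus SpretB6 was -0.88 ± 0.14 (SE; 95% interval -1.18 to -0.59), or 1.84-fold, with an edgeR adjusted p of 0.00108. This call held in all 25 other settings. In that pair 5.53% of all transcripts were called, and of the 3 genes only Sox2, also with DESeq2 and limma voom. Against PwkB6 the difference was -0.63 ± 0.14 (SE; 95% interval -0.92 to -0.34), or 1.55-fold, with an edgeR adjusted p of 0.0129. That call was lost with library totals in place of TMM (-0.53, adjusted p = 0.0745), with limma on log2(TPM + 1) (-0.47, adjusted p = 0.145), with only these crosses in the fit (adjusted p = 0.0692) and without SpretB6 1 (adjusted p = 0.0545).

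The other Sox2 differences did not pass. CastB6 minus SpretB6 was -0.37 (95% interval -0.66 to -0.07; edgeR adjusted p = 0.15). The interval of these neighbours in the order lies below 0, and the call was missed after adjustment over all transcripts. CastB6 minus MolfB6 was 0.52 (95% interval 0.23 to 0.81; edgeR adjusted p = 0.0622). DESeq2 called this pair (0.54, adjusted p = 0.0034), as did edgeR with RLE size factors (adjusted p = 0.0499) and without PwkB6 3 (adjusted p = 0.0222). For CastB6 minus PwkB6 the difference was 0.26 (95% interval -0.03 to 0.55) and for MolfB6 minus PwkB6 it was -0.26 (95% interval -0.55 to 0.04), neither of them called. The value of CastB6 minus PwkB6 rests on the scaling: it was 0.08 with library totals and 0.01 with limma on log2(TPM + 1), and the mean TPM of these crosses was nearly equal. These intervals leave room for differences in the level of Sox2 and do not show that the crosses are alike.

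Nanog had another order, with PwkB6 and CastB6 on top and SpretB6 at the bottom. The SpretB6 libraries 1, 3, 5 and 6 held 81.2, 66.8, 102 and 47.4 TPM (mean 74.4 ± 23.1). The 4 MolfB6 libraries were close together, at 81.9, 90.2, 84.7 and 81.4 TPM for libraries 1, 2, 3 and 6 (mean 84.6 ± 4.01). The CastB6 libraries 1, 3, 5 and 6 held 119, 102, 95.1 and 126 TPM (mean 110 ± 14.5), all above the 4 MolfB6 libraries. PwkB6 libraries 1 and 6 held 166 and 175 TPM, more than any library of another cross, while libraries 3 and 5 held 98.3 and 107 TPM (mean of all 4, 137 ± 39.5). The spread within a cross was thus widest in SpretB6 and PwkB6, at 31.1% and 28.9% of the mean, and narrowest in MolfB6, at 4.74%. That difference in spread was not tested, and after TMM scaling MolfB6 2 lay apart from the other 3 MolfB6 libraries, at 7.51 log2 CPM against 7.06 to 7.15. On the same scale PwkB6 6 was level with CastB6 1, at 7.76 log2 CPM for both, while PwkB6 1 stood at 8.07.

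Nanog was lower in SpretB6 than in PwkB6 and CastB6, though these calls were close to the threshold. PwkB6 minus SpretB6 was 0.72 ± 0.19 (SE; 95% interval 0.32 to 1.11), or 1.64-fold, with an edgeR adjusted p of 0.0359. In that pair 5.5% of all transcripts were called, and of the 3 genes Sox2 and Nanog, in opposite directions. CastB6 minus SpretB6 was 0.68 ± 0.19 (SE; 95% interval 0.28 to 1.08), or 1.60-fold, with an edgeR adjusted p of 0.0445. In that pair 6.05% of all transcripts were called, and Nanog was the only call among the 3 genes. In the joint edgeR test Nanog had an adjusted p of 0.0428, and 63.5% of the variance of its log2 level lay between crosses. Of all tested transcripts, 88.2% had a lower share.

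Each of the 3 Nanog calls was lost when single libraries were left out. The joint call was lost in 12 of 16 such fits (adjusted p up to 0.111, without SpretB6 3) and kept without MolfB6 2, PwkB6 3, PwkB6 5 or SpretB6 5. PwkB6 minus SpretB6 was lost in 10 (up to 0.121, without PwkB6 1) and kept without CastB6 1, MolfB6 2, MolfB6 3, PwkB6 3, PwkB6 5 or SpretB6 5. The call of CastB6 minus SpretB6 was lost in 11 (up to 0.132, without SpretB6 3) and kept without MolfB6 2, PwkB6 1, PwkB6 3, PwkB6 6 or SpretB6 5. Without SpretB6 6, the library with the least Nanog, the difference of CastB6 was 0.54 and that of PwkB6 0.58. Across the 25 other settings the differences kept their sign, at 0.57 to 0.88 for PwkB6 and 0.54 to 0.85 for CastB6.

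No Nanog difference of MolfB6 from another cross passed the adjusted threshold, although its TPM did not overlap with CastB6 or PwkB6 and the intervals for these lie off 0. MolfB6 minus SpretB6 was 0.22 (95% interval -0.17 to 0.62; edgeR adjusted p = 0.659). CastB6 minus MolfB6 was 0.46 (95% interval 0.06 to 0.85; edgeR adjusted p = 0.273), and MolfB6 minus PwkB6 was -0.49 (95% interval -0.89 to -0.10; edgeR adjusted p = 0.281). For the top of the order, CastB6 minus PwkB6 was -0.04 (95% interval -0.43 to 0.36; edgeR adjusted p = 0.945), although mean TPM was 1.24-fold higher in PwkB6. Library totals in place of TMM moved the Nanog difference of CastB6 minus PwkB6 to -0.22, and the median log2 fold change of all transcripts in that pair from -0.09 to -0.27, a shift of 0.182, while the other pairs shifted by 0.0115 to 0.0983. In the pairs without SpretB6, 0 of the 3 genes were called by edgeR, beside 2.76% of all transcripts for CastB6 with MolfB6, 3.76% for CastB6 with PwkB6 and 1.2% for MolfB6 with PwkB6. At an unadjusted p under 0.05 the counts were 2, 0 and 1, DESeq2 called 1, 0 and 0, and limma voom called 0 in each.

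**Figure D2:**
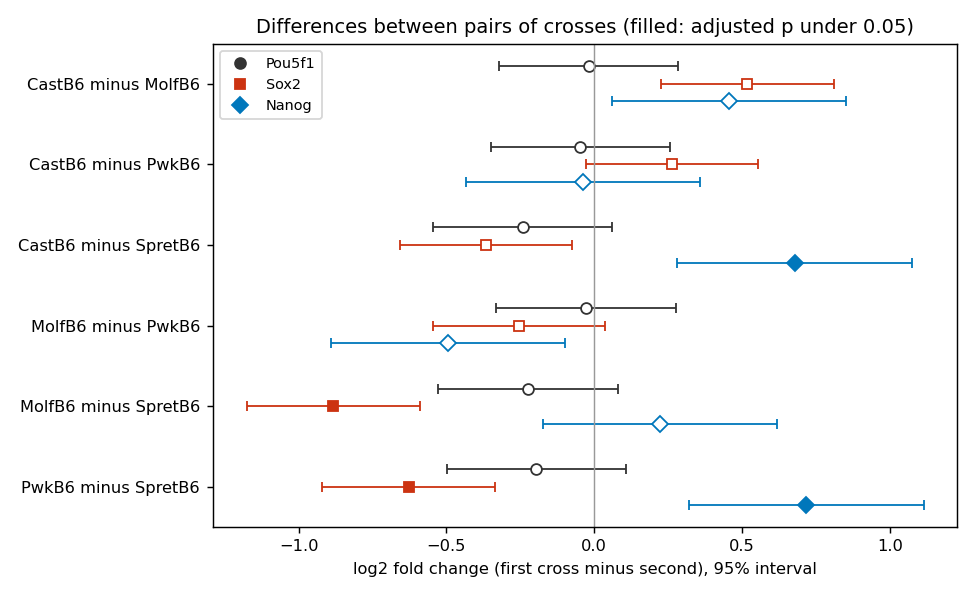
Log2 fold change (first cross minus second, horizontal axis) of Pou5f1, Sox2 and Nanog for the 6 pairs of crosses, with 95% intervals; filled symbols have an edgeR adjusted p under 0.05. Filled symbols occur in the pairs with SpretB6, where Sox2 lies left of 0 and Nanog right of 0, and all 6 Pou5f1 intervals include 0.

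Pou5f1 showed no detectable difference between crosses. The CastB6 libraries 1, 3, 5 and 6 held 404, 555, 487 and 499 TPM (mean 486 ± 62.4), and CastB6 1 was the lowest of all 16. In MolfB6 the libraries 1, 2, 3 and 6 held 533, 508, 598 and 460 TPM (mean 525 ± 57.7). PwkB6 libraries 1, 3, 5 and 6 held 598, 693, 503 and 588 TPM (mean 595 ± 77.8), and PwkB6 3 was the highest of all. The SpretB6 libraries were close together and above every CastB6 and MolfB6 library, at 640, 600.0, 603 and 627 TPM (mean 618 ± 19.3). This separation in TPM was lost after TMM scaling. SpretB6 5 (9.19 log2 CPM) then lay below CastB6 3 (9.26) and MolfB6 2 (9.24).

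The edgeR joint test gave Pou5f1 an adjusted p of 0.586, and it was not called in any of the 24 other settings (0.117 to 0.788). Between crosses lay 24.4% of the variance of its log2 level, below the median of 30.5% over all tested transcripts. The largest pairwise difference was CastB6 minus SpretB6, at -0.24 (95% interval -0.55 to 0.06; edgeR adjusted p = 0.414). It was -0.33 with library totals (edgeR adjusted p = 0.106) and -0.35 with limma on log2(TPM + 1) (limma adjusted p = 0.073). Neither was called. For MolfB6 and for PwkB6 minus SpretB6 the difference after TMM scaling was -0.22 (95% interval -0.53 to 0.08) and -0.20 (95% interval -0.50 to 0.11). In the same 2 other settings MolfB6 minus SpretB6 was -0.21 and -0.24, and PwkB6 minus SpretB6 was -0.11 and -0.06. Among CastB6, MolfB6 and PwkB6 the 3 differences lay between -0.05 and -0.02, and their intervals between -0.35 and 0.28, after TMM scaling. With library totals or with limma on log2(TPM + 1) they were larger. CastB6 minus PwkB6 was -0.22 with library totals and -0.29 with limma on log2(TPM + 1) (adjusted p = 0.136), and MolfB6 minus PwkB6 was -0.10 and -0.18, none of them called. The widest bound of the 6 Pou5f1 intervals after TMM scaling was -0.55, and a p that misses the threshold does not show that the crosses are alike.

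The levels of Nanog and Sox2 relative to each other set SpretB6 apart. A ratio taken within a library depends neither on its depth nor on the scaling. It does not remove the unknown handling of the wild-derived allele or the unmeasured share of divided reads. Nor does it remove library properties that moved with the genes to different degrees, given below. The ratios were not tested against these properties. SpretB6 libraries 1, 3, 5 and 6 had 1.75, 1.71, 2.05 and 1.33 TPM of Nanog per TPM of Sox2. The 12 other libraries had 3.10 to 5.21, so that SpretB6 overlapped with none of them. The SpretB6 mean of 1.71 ± 0.295 compares with 3.60 ± 0.336 for CastB6, 3.73 ± 0.573 for MolfB6 and 4.41 ± 0.681 for PwkB6. Of the variance of the log2 ratio, 89.0% lay between crosses. Ratios of other pairs of transcripts were not computed, so how common such a share is remains unknown. In a one-sided exact permutation test over all 2627625 divisions of the libraries into 4 sets of 4, the crosses differed in this ratio with p = 0.000334, or 0.001 adjusted over the 3 ratios. The adjusted p of this exact test was 0.000376 to 0.00255 with any library left out.

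**Figure D3:**
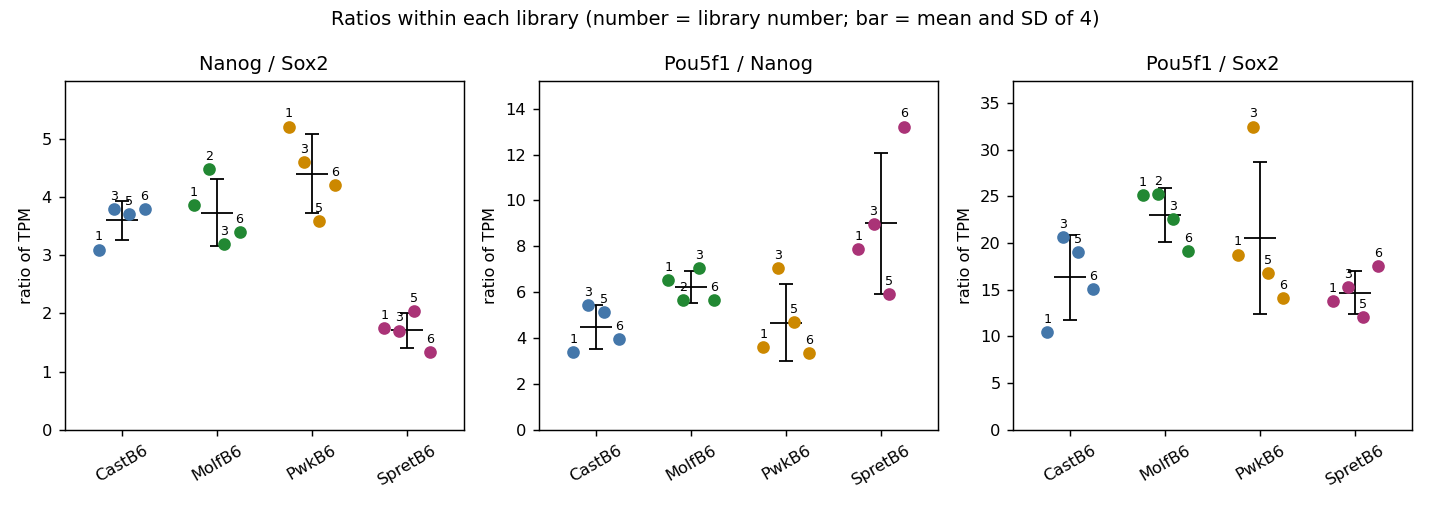
Ratio of the TPM of each pair of genes within a library (vertical axes from 0) for the 4 crosses; points carry the library number, bars show the mean and SD of 4. The 4 SpretB6 points of the Nanog to Sox2 ratio (1.33 to 2.05) lie below all 12 others (3.10 to 5.21).

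On the log2 scale the Nanog to Sox2 ratio was 1.09 higher in CastB6 than in SpretB6, 1.13 higher in MolfB6 and 1.37 higher in PwkB6, that is 2.13-fold, 2.19-fold and 2.59-fold. Compared pair by pair, each of these had a two-sided exact permutation p of 0.0286, the smallest that 4 against 4 libraries allow. Adjusted over the 18 comparisons of 3 ratios in 6 pairs, that smallest exact p became 0.0857, so no single pair passed. Against MolfB6 the fitted difference was larger for Sox2 (-0.88) than for Nanog (0.22), and against CastB6 it was larger for Nanog (0.68) than for Sox2 (-0.37); whether these sizes differ was not tested.

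The Pou5f1 to Nanog ratio also differed between crosses, with more overlap. SpretB6 libraries 1, 3, 5 and 6 had 7.88, 8.98, 5.90 and 13.2 TPM of Pou5f1 per TPM of Nanog. The mean was 9.0 ± 3.09 for SpretB6, against 6.21 ± 0.699 for MolfB6, 4.67 ± 1.69 for PwkB6 and 4.48 ± 0.973 for CastB6. The exact permutation test gave p = 0.0101, or 0.0151 adjusted over the 3 ratios. Without SpretB6 6 the adjusted p of the exact test was 0.0568. The Pou5f1 to Sox2 ratio, with means of 14.7 ± 2.33 (SpretB6), 16.3 ± 4.55 (CastB6), 20.6 ± 8.17 (PwkB6) and 23.0 ± 2.87 (MolfB6), did not pass (exact permutation p = 0.106, also after adjustment). PwkB6 3 had the highest value, 32.5, and without it the adjusted exact p was 0.0449.

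Within crosses, libraries with more Nanog tended to have more Sox2. After the mean of its cross was subtracted from each log2 CPM, Nanog and Sox2 had a Pearson r of 0.625 over the 16 libraries (permutation within crosses, two-sided p = 0.0121, adjusted over 3 relations 0.031). Spearman's rho of the same deviations was 0.606 (permutation p = 0.0217, adjusted 0.0391). Without the 2 libraries farthest from the median of the Nanog deviations, PwkB6 1 and SpretB6 5, r was 0.571. With log2 TPM in place of scaled CPM it was 0.767. The sign held with any library left out, but the call was lost without CastB6 1, CastB6 3, PwkB6 3, SpretB6 5 or SpretB6 6 (permutation p adjusted over 3 relations 0.0547 to 0.0744). After TMM scaling the 4 libraries of CastB6 and of SpretB6 had the same order for both genes. On that scale 19 of the 24 pairs of libraries of a cross agreed in direction, but only 3 of 6 in MolfB6 and 4 of 6 in PwkB6. In TPM the CastB6 order differed, as CastB6 6 had more Nanog than CastB6 1 (126 against 119) but less Sox2 (33.1 against 38.5). The library with the least Nanog after scaling, namely CastB6 3, MolfB6 1, PwkB6 3 and SpretB6 6, also had the least Sox2 of its cross. In TPM this did not hold for MolfB6, where MolfB6 2 had the least Sox2 (20.1) and the most Nanog (90.2).

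Across all 16 libraries, with the differences between crosses left in, this relation was not seen. Pearson's r of Nanog with Sox2 was then -0.09 (permutation p = 0.746, adjusted 0.815) and Spearman's rho 0.06 (permutation p = 0.82, adjusted 0.848). Without the 2 farthest libraries, PwkB6 1 and SpretB6 6, r was 0.08. The SpretB6 libraries lie apart from the rest, with more Sox2 for their Nanog, so the r over all libraries is a description. With 4 libraries no r was computed within a single cross.

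**Figure D4:**
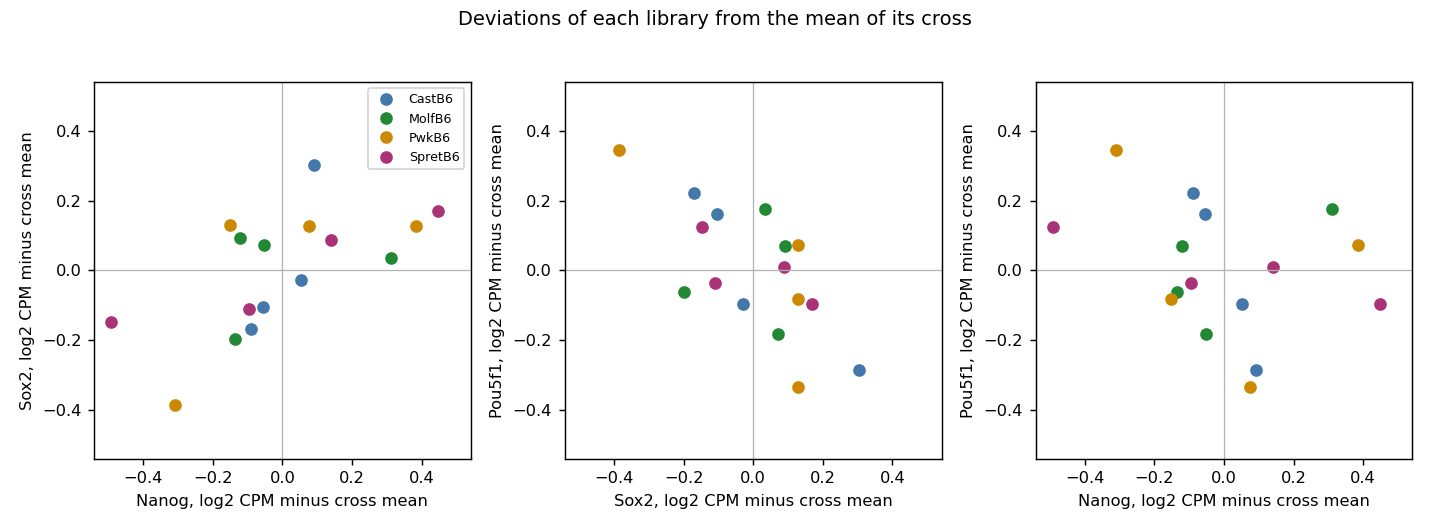
Deviation of each library from the mean of its cross in log2 CPM, for Nanog against Sox2, Sox2 against Pou5f1 and Nanog against Pou5f1, with 1 point a library and colours for the crosses. Points rise from lower left to upper right for Nanog with Sox2 (r = 0.625) and fall for Sox2 with Pou5f1 (r = -0.69).

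Pou5f1 went the other way within crosses. Its deviations had a Pearson r of -0.69 with those of Sox2 (permutation within crosses, p = 0.0207, adjusted 0.031) and a Spearman's rho of -0.62 (permutation p = 0.0261, adjusted 0.0391). Without MolfB6 1 and PwkB6 3, the 2 farthest in Sox2, r was -0.66. CastB6 1 had the most Sox2 and the least Pou5f1 of its cross, and PwkB6 3 the reverse. With Nanog the r of Pou5f1 was -0.28 (permutation p = 0.322, also after adjustment) and rho was -0.31 (permutation p = 0.272). The relation with Sox2 depends on the scaling and on single libraries. With log2 TPM r was -0.38 (permutation p adjusted over 3 relations 0.374). The call was also lost without CastB6 1, CastB6 3, CastB6 5, PwkB6 3, PwkB6 5, SpretB6 5 or SpretB6 6 (adjusted permutation p 0.0547 to 0.156), and r was weakest, at -0.52, without PwkB6 3. Across all 16 libraries Pou5f1 had an r of 0.06 with Sox2 (permutation p = 0.815) and of -0.46 with Nanog (permutation p = 0.0759, adjusted 0.228), with rho of 0.05 (permutation p = 0.848) and -0.48 (permutation p = 0.0607).

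Properties of the libraries moved with Pou5f1 as well. The fragment length correction, the median difference of length and effective length over long transcripts, ran from 147 to 156 bases. Within crosses its Pearson r was 0.748 with Pou5f1 (permutation p = 0.00592, adjusted over 9 relations 0.0266; rho 0.729, permutation p = 0.0086, adjusted 0.0387), -0.67 with Sox2 (permutation p = 0.0139, adjusted 0.0416; rho -0.60, permutation p = 0.0283, adjusted 0.0636) and -0.35 with Nanog (permutation p = 0.224, adjusted 0.336; rho -0.40, permutation p = 0.163). Without MolfB6 6 and PwkB6 3, the 2 farthest in this measure, these were 0.655, -0.59 and -0.31. The number of transcripts with reads had an r of -0.77 with Pou5f1 within crosses (permutation p = 0.00284, adjusted 0.0256; rho -0.77, permutation p = 0.00165, adjusted 0.0149), and -0.69 without PwkB6 6 and SpretB6 5. With Sox2 and Nanog it was 0.41 (permutation p = 0.201) and 0.337 (permutation p = 0.2995). The library total gave r of -0.50, 0.231 and 0.139 with Pou5f1, Sox2 and Nanog within crosses, none below an adjusted permutation p of 0.184 (rho -0.60, 0.327 and 0.0235, adjusted p from 0.0636). The part of these properties in the relations between the genes was not tested.

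Across all 16 libraries the fragment length correction had an r of 0.715 with Pou5f1 (permutation p = 0.0019, adjusted 0.0171; rho 0.641, permutation p = 0.00885, adjusted 0.0797), and 0.62 without the same 2 libraries. For Sox2 and Nanog it was -0.16 (permutation p = 0.54) and -0.26 (permutation p = 0.324).

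The transcripts most like each gene were other than the other 2 genes. Likeness was measured as Pearson's r of log2 CPM over the 16 libraries, among the 56720 other tested transcripts, and the 2 highest for each gene are given by ID, without a gene name. For Pou5f1 these were ENSMUST00000102898.5 (r = 0.963; 696 to 1381 TPM) and ENSMUST00000031536.8 (r = 0.959; 6.02 to 11.6 TPM). Nearest to Sox2 were ENSMUST00000122065.2 (r = 0.945; 2.04 to 13.6 TPM) and ENSMUST00000195571.2 (r = 0.926; 0.643 to 1.64 TPM). ENSMUST00000122065.2 averaged 11.6 TPM for SpretB6, 7.51 for CastB6, 4.36 for PwkB6 and 2.85 for MolfB6, in the order that Sox2 had after TMM scaling. ENSMUST00000195571.2 averaged 1.44 TPM for SpretB6, 1.13 for PwkB6, 1.06 for CastB6 and 0.804 for MolfB6. Nearest to Nanog were ENSMUST00000112871.8 (r = 0.928; 0.827 to 7.20 TPM) and ENSMUST00000176756.9 (r = 0.926; 0.116 to 0.915 TPM). ENSMUST00000112871.8 averaged 4.82 TPM for PwkB6, 3.89 for CastB6, 1.68 for MolfB6 and 1.66 for SpretB6. As these transcripts were picked as the highest of many over the same libraries, their r and the order of their cross means are a description. In the list ordered by likeness to Nanog, Sox2 took place 33696 and Pou5f1 place 51683.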

How the data were processed

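The libraries are those of 16 samples of ribodepleted total RNA. Per the submitters' processing notes, the authors used Salmon and DESeq2 with mm10; their versions, the transcript set, the strand setting and the handling of alleles are unknown here (not given in the sources used here). The deposited tables give, per the file headers, estimated counts (reads per transcript, not whole) and TPM. Estimated counts were rounded. Transcripts were kept by filterByExpr (minimum count 10, minimum total 15), which left 56721, and fitted over all 16 libraries with edgeR 4.0.16 (R 4.3.3; TMM, quasi-likelihood F tests, Benjamini-Hochberg adjustment). Standard errors come from the fold change and F, intervals from the t distribution. The fits were tested on simulated data. Log2 CPM used a prior count of 2. Permutation tests of correlations used 100000 resamples (SciPy 1.17.1).

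The files pair no transcript ID with a gene name, and 0 IDs matched the GRCm38.p6 table, so planned gene lists and cell type markers were not analysed. Named transcripts are the 3 members and the 2 most alike to each. Members and lists were chosen with earlier results of these data known. Alternatives were DESeq2 1.42.0, limma 3.58.1 (voom, and log2 of TPM plus 1), other scalings and filters, a block on the library number, and each library left out. The pairwise ratio tests and the relations with library properties were added after seeing the data. Over 24 pairs of libraries of a cross, counts differed by at least 23.9 times sampling noise (chi-square per transcript), so none was counted as a duplicate.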

Additional observations from a re-analysis of the deposited data

Results flagged for a closer look

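For each cross, the 4 libraries were searched for a value far from the others in the TPM of the 3 genes, their 3 ratios and the library total, which makes 28 sets of values. Only the Nanog to Sox2 ratio in CastB6 had one; at 1 in 20, chance flags about 1.4 sets of 28. CastB6 1 had a ratio of 3.10, against 3.71 to 3.80 in the other CastB6 libraries, and the gap to its nearest neighbour was 0.883 of the range of the cross. The same library had the lowest ratio outside SpretB6, whose highest library had 2.05. The cause was not tested.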

How the results depend on the processing

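The joint Sox2 call, Sox2 in MolfB6 minus SpretB6 and the joint Nanog to Sox2 ratio kept direction and call in every alternative run. Nanog with Sox2 within crosses kept its sign, at 0.541 to 0.695 with a library left out, and lost its call in 5 of 16 such cases. Nanog was less stable. Its joint adjusted p (edgeR) was 0.0690 with no filter and 0.0631 with the replicate block, and 0.0176 to 0.111 with a library left out. For pairs of crosses, the values of a gene given from here on are log2 fold changes, not p-values. Nanog in CastB6 minus SpretB6 missed the threshold with library totals (0.588), limma on log2(TPM + 1) (0.609), no filter (0.686), a fit of only the 2 crosses (0.682) and the replicate block (0.694), and was 0.535 to 0.851 with a library left out. Nanog in PwkB6 minus SpretB6 missed it with no filter (0.717), only the 2 crosses (0.735) and the replicate block (0.722), and was 0.572 to 0.866 with a library left out. Sox2 in PwkB6 minus SpretB6 missed it with library totals (-0.528), limma on log2(TPM + 1) (-0.470) and only the 2 crosses (-0.608), and was -0.669 to -0.527 with a library left out. Sox2 in CastB6 minus MolfB6 passed with RLE size factors (0.537) and DESeq2 (0.537), and was 0.403 to 0.588 with a library left out. The cause was not tested.

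Pou5f1 and Sox2 in CastB6 minus PwkB6, uncalled throughout, moved with the scaling, from -0.05 to -0.22 and from 0.26 to 0.08 with library totals. Differences near 0 changed sign. Pou5f1 in CastB6 minus MolfB6 was 0.000463 with RLE size factors, 0.000458 with DESeq2 and 0.0424 with the replicate block. With a library left out it was -0.0801 to 0.0651, Pou5f1 in CastB6 minus PwkB6 was -0.146 to 0.105, Pou5f1 in MolfB6 minus PwkB6 was -0.125 to 0.113 and Nanog in CastB6 minus PwkB6 was -0.110 to 0.107. Across libraries, r of Nanog with Sox2 was 0.121 with log2 TPM and 0.0813 without the 2 farthest libraries, and r of Sox2 with Pou5f1 was -0.108 without the 2 farthest. With a library left out these were -0.198 to 0.0637 and -0.0318 to 0.248, and Nanog with Pou5f1 was -0.534 to -0.313. Within crosses, Sox2 with Pou5f1 was -0.385 with log2 TPM and -0.779 to -0.522 with a library left out. The adjusted exact p was 0.00188 to 0.0568 for the Pou5f1 to Nanog ratio and 0.0449 to 0.198 for the Pou5f1 to Sox2 ratio with a library left out.

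Equal library numbers were not found to pair libraries, since the deviations of 21 same-numbered pairs correlated at -0.0666 to 0.133. With the replicate block, calls over all transcripts went from 5519 to 3581 in the joint test, from 1564 to 797 (CastB6 minus MolfB6), from 2134 to 1360 (CastB6 minus PwkB6), from 682 to 304 (MolfB6 minus PwkB6) and from 3137 to 1717 (MolfB6 minus SpretB6). DESeq2 called 11022 in the joint test and 3817, 5679, 6256, 2459, 5606 and 5975 in the 6 pairs, in the order CastB6 with MolfB6, PwkB6 and SpretB6, MolfB6 with PwkB6 and SpretB6, PwkB6 with SpretB6. With only the 2 crosses in the fit, CastB6 minus PwkB6 had 658 calls, MolfB6 minus PwkB6 372 and PwkB6 minus SpretB6 1980. CastB6 minus PwkB6 had 1403 with no filter, and MolfB6 minus PwkB6 1090 with limma on log2(TPM + 1). Leaving out CastB6 5, MolfB6 1, MolfB6 3 or MolfB6 6 gave 926, 871, 1006 or 994 for CastB6 minus MolfB6. Leaving out CastB6 3, CastB6 5, PwkB6 1 or PwkB6 5 gave 1340, 1060, 1251 or 3380 for CastB6 minus PwkB6, and leaving out MolfB6 1 gave 437 for MolfB6 minus PwkB6.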
